A study of Mus musculus with 18 samples.

Results

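The genes described here code for collagens, the fibrillar and basement membrane matrix and the enzymes that cross-link, trim and degrade it. They are the 50 listed matrix genes, and each was read from the brightest array row annotated to its symbol alone. Such a row existed for 47 of the 50, with 1 row each, among the 19938 genes of the table. Fbn1 and Efemp2 were not listed in the annotation used, and Loxl2 was named only on a row that it shares with Gm21451. The 47 members were measured as log2 signals on 18 arrays, 3 for each of 6 groups.

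All groups are C2C12, an established line of mouse myoblasts that fuse into myotubes in low serum. In every group the endogenous TAF3, a subunit of the basal transcription factor TFIID, had been depleted by stable shRNA and replaced by a murine transgene, so no group carries unmodified cells. WT-TAF3 cells received the wild-type transgene. WT-TAF3 sh-PIP4K2B cells were in addition depleted of PIP4K2B, a kinase that phosphorylates the nuclear lipid PI5P. KK-TAF3 sh-PIP4K2B cells carry that depletion with the KK transgene, a mutant that keeps its histone contact and loses phosphoinositide binding. KK-TAF3 cells without the depletion were not analysed here, so the KK comparison is within depleted cells. Each line was either differentiated in 2% horse serum for 2 days, per the sample labels, or treated with etoposide, a topoisomerase II inhibitor, at 10 µM for 7 hours. The triplicates are stated to be biological. Serum, time in culture and drug all differ between the treatments and cannot be told apart.

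Fibrillar collagens are secreted as trimeric precursors, cut at their ends, assembled into fibrils and cross-linked by lysyl oxidases. Basement membranes combine network-forming collagen IV, laminin trimers and nidogens, and collagen VI joins them to the interstitial matrix. Elastic fibres are elastin laid on microfibrils of fibrillins and associated proteins, with fibulins at the interface. Muscle cells and the fibroblasts around them both make matrix, and its composition changes during myogenesis and repair.

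Pip4k2b, the targeted gene, ran from 10.68 to 10.69 on the differentiated WT-TAF3 arrays and from 9.46 to 9.64 with the shRNA, and after etoposide from 10.48 to 10.75 and from 9.63 to 9.92. Among markers of cell types, the endothelial, macrophage and fat cell means stayed between 6.10 and 6.79. Those of smooth muscle lay between 9.92 and 10.14, and those of cartilage and bone between 6.87 and 7.61. The cartilage and bone mean ran from 7.31 to 7.51 in differentiated WT-TAF3 cells and from 6.87 to 7.26 with PIP4K2B depletion. The mean of 8 muscle markers moved with genotype in differentiated cells, from 9.69 to 9.72 in WT-TAF3, from 9.92 to 9.93 with PIP4K2B depletion and from 9.45 to 9.52 in KK-TAF3 sh-PIP4K2B cells, and lay between 9.40 and 9.55 on all etoposide arrays. In the KK comparison Myog, Myh3 and Acta1, markers of differentiated muscle, fell in differentiated cells, with differences of -1.02, -0.93 and -1.18. The rest of the 8 did not pass there. Ckm, Chrna1 and Cdh15 differed by -0.42, -0.18 and -0.07, and Des and Myod1 by 0.12 and 0.20. The mean of 6 fibroblast markers, which include the member Col15a1, ran from 8.86 to 8.95 in differentiated WT-TAF3 cells, from 8.42 to 8.53 with PIP4K2B depletion and from 8.51 to 8.55 in KK-TAF3 sh-PIP4K2B cells, and after etoposide from 8.04 to 8.07 in WT-TAF3 cells, from 7.61 to 7.72 with depletion and from 7.76 to 7.90 with KK-TAF3. Lum and Dcn carried most of the difference between treatments in WT-TAF3 cells, with group means of 9.32 and 13.52 in differentiated cells and 6.35 and 12.12 after etoposide. Under depletion in differentiated cells all 6 differences were negative, but Lum alone passed, and the arrays of Thy1 and Tcf21 overlapped. Lum and Dcn differed by -1.06 and -0.40, and Pdgfra, Col15a1, Thy1 and Tcf21 by -0.33, -0.28, -0.26 and -0.17. Under depletion after etoposide Dcn and Lum fell by 1.53 and 0.95, while Thy1 and Col15a1 differed by 0.21 and 0.14. The part of the muscle and fibroblast markers in the results was not tested. RNA from fewer matrix-producing cells and less RNA per cell cannot be told apart in such bulk samples. Replicate number 3 stood apart among the members after etoposide. On that array 26 of 47 members had their lowest value in all 3 groups, against 0 of 47 in differentiated cells. The same count was not made over all genes. The etoposide results are also given without the 3 etoposide arrays of that number where that changes a call.

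Promoter sequences from RefSeq (GRCm38.p6) were at hand for 34 of the 50 members. Those below belong to members that changed with genotype or treatment and are printed 5′ to 3′ on the strand of the gene, up to the base before the annotated start. Capitals mark a match to the TATA box letters TATAAA, to the CAAT box letters CCAAT or to the GC box letters GGGCGG, each searched on both strands, so that a GC box on the opposite strand reads CCGCCC, and a stretch with no capitals holds none of the motifs.
Fbln5, chr12:101819120-101819219, minus strand: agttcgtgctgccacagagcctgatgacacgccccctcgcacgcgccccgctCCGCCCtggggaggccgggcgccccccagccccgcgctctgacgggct
Efemp1, chr11:28853105-28853204, plus strand: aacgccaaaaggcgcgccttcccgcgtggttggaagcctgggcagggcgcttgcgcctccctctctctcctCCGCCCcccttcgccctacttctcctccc
Dpt, chr1:164796563-164796662, plus strand: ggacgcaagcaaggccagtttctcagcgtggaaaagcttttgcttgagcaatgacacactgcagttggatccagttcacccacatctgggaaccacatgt
Postn, chr3:54361077-54361106, plus strand: gctaTATAAActcagctctccagagcacag
Col18a1, chr10:77166531-77166630, minus strand: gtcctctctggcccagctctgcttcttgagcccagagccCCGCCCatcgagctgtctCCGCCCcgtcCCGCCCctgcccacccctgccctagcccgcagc
Col6a1, chr10:76726045-76726144, minus strand: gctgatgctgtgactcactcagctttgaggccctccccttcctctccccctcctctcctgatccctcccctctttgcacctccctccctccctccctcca
Col6a2, first entry, chr10:76623405-76623504, minus strand: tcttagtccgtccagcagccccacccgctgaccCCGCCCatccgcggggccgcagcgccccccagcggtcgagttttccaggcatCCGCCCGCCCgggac
Col6a2, second entry, chr10:76623631-76623730, minus strand: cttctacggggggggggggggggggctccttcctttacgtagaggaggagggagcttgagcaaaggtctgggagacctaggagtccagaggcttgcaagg
Tnc, chr4:64047016-64047115, minus strand: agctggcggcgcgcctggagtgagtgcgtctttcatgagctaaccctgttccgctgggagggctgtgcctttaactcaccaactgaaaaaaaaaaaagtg

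Fbln5, Col18a1 and Tnc have a further annotated start and are shown at the first listed, and Col6a2 is shown at both of its starts. The Postn stretch, which precedes the second of its annotated starts, holds TATAAA on the plus strand 26 bases before that start. Over whole windows of 250 bases before to 50 after a start, GGGCGG was found for 27 of 34 members (79.4%) and 38.2% of all 27025 genes of the table, CCAAT for 16 (47.1%) against 41.1% and TATAAA for 4 (11.8%) against 15.7%. A gene counted once if any of its windows held the motif. These are matches of letters and not binding sites.

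The first comparison asked how the matrix genes differed between etoposide treatment and differentiation in each genotype. It held the largest differences among the members. In all 3 genotypes 3 members rose, Tnc, Col18a1 and Fbln1, and 9 fell, Nid2, Col6a1, Col6a2, Efemp1, Col1a1, Mmp2, Lamb1, Col3a1 and Col5a2, with an adjusted p below 0.05 and more than 1.4-fold between the means, the threshold used throughout. Over all 19938 genes 398 rose and 429 fell in all 3 genotypes. In WT-TAF3 cells 4 members rose and 14 fell, which is 38.3% of 47 against a background of 7.63% of all genes. In WT-TAF3 sh-PIP4K2B cells 4 rose and 12 fell, 34.0% against 9.95%, and in KK-TAF3 sh-PIP4K2B cells 3 rose and 13 fell, 34.0% against 8.33%. The median log2 difference of the members was -0.23, -0.16 and -0.27 in these genotypes, beside -0.05, 0.07 and 0.03 over all genes. In no genotype did 25 of the 47 members pass, beside 17171 of all 19938 genes.

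**Figure D1:**
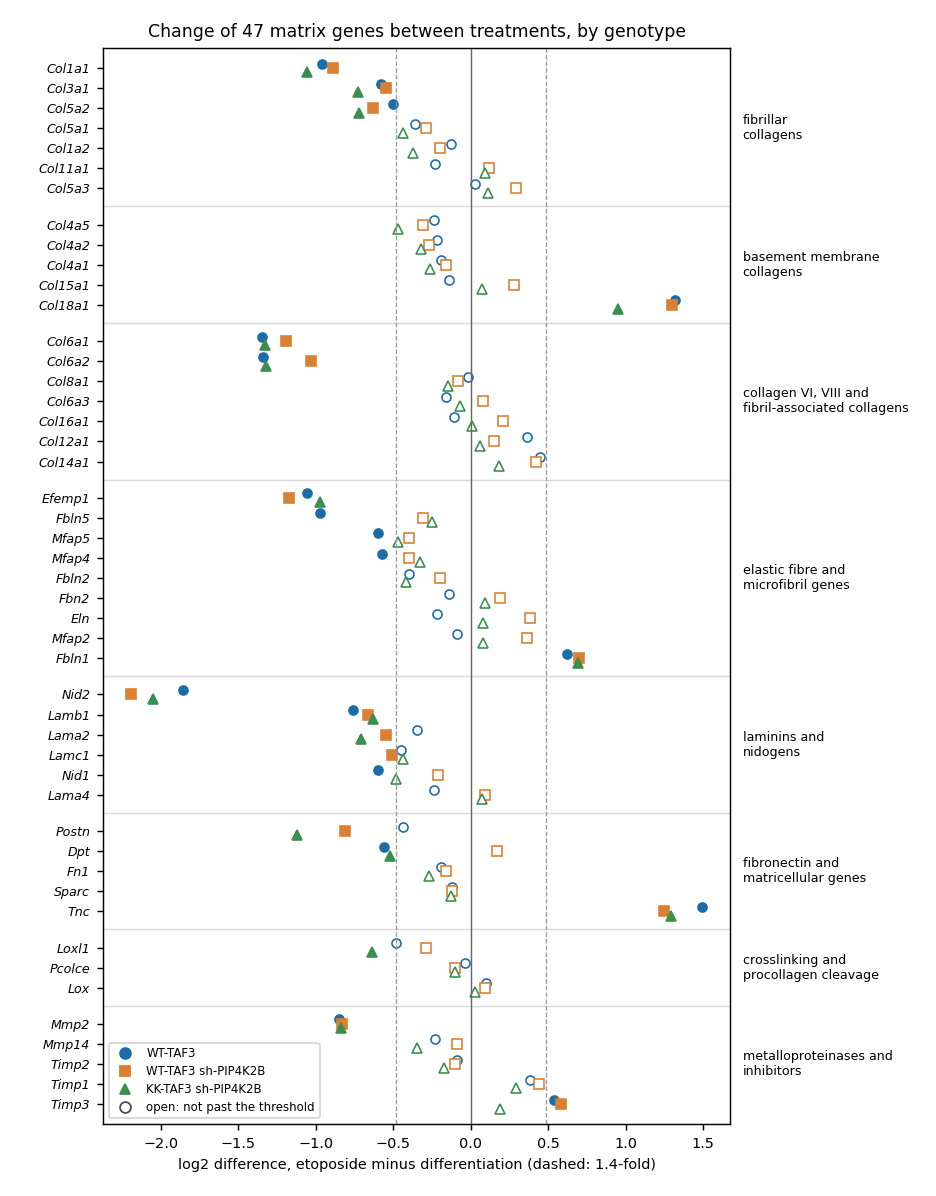
Log2 difference between etoposide and differentiation (x axis) of the 47 matrix genes (y axis, grouped by role), 1 symbol per genotype, filled where the gene passed the threshold and with dashed lines at 1.4-fold. Nid2 lies farthest to the left at -1.86 to -2.19, and Tnc and Col18a1 farthest to the right.

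Among the fibrillar collagens, the chains of the main tensile fibrils, 3 of 7 fell in every genotype and none rose. Col1a1, the alpha1 chain of collagen I, read 12.62, 12.55 and 12.65 on the differentiated WT-TAF3 arrays and 11.92, 11.77 and 11.25 after etoposide. With PIP4K2B depletion it went from 12.73, 12.64 and 12.49 to 11.88, 11.92 and 11.39, and with KK-TAF3 from 12.30, 12.28 and 12.31 to 11.58, 11.35 and 10.79. No etoposide array reached a differentiated one, and the etoposide arrays spread more widely. The differences were -0.96, -0.89 and -1.06 (SE 0.18, largest adjusted p = 0.000801). Its partner in the collagen I trimer, Col1a2, differed by less, -0.13, -0.20 and -0.37 (SE 0.09), and passed in no genotype, with arrays that overlapped in WT-TAF3 cells. Col3a1, the homotrimeric collagen III, fell by 0.58, 0.55 and 0.73 on the log2 scale (SE 0.09), and Col5a2, a chain of the collagen V that nucleates fibrils, fell by 0.50, 0.63 and 0.72 (SE 0.11). The Col5a2 call in WT-TAF3 cells did not hold without the third etoposide arrays, with a difference of -0.41. Col5a1, its partner, differed by -0.36, -0.29 and -0.44 and stayed under the fold limit.

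Collagen VI, the beaded-filament collagen around muscle fibres, was split among its chains. Col6a1 read 12.01, 11.98 and 12.08 in differentiated WT-TAF3 cells and 10.88, 10.73 and 10.42 after etoposide. In WT-TAF3 sh-PIP4K2B cells it read 12.11, 12.08 and 11.96 and then 10.93, 10.92 and 10.72, and in KK-TAF3 sh-PIP4K2B cells 12.14, 12.06 and 12.15 and then 11.03, 10.82 and 10.50. Every etoposide array lay below every differentiated one in each genotype, and Col6a1 fell by 1.35, 1.19 and 1.33 (SE 0.12, largest adjusted p = 3.75e-07), or -60.7, -56.2 and -60.2% on the linear scale. Col6a2, which lies 102.4 kb from Col6a1 on chromosome 10, read 11.07, 10.98 and 11.08, then 9.80, 9.74 and 9.58 in WT-TAF3 cells. It read 10.99, 11.03 and 10.98, then 10.02, 10.09 and 9.82 with depletion and 11.17, 11.13 and 11.17, then 9.99, 9.86 and 9.65 with KK-TAF3. It fell by 1.34, 1.03 and 1.32 (SE 0.09, largest adjusted p = 4.9e-08). Col6a3, the third chain, on chromosome 1, differed by -0.16, 0.08 and -0.07 (SE 0.22). In WT-TAF3 cells the interval of that difference at the 95% level ran from -0.63 to 0.30, and the etoposide arrays of Col6a3 spanned 10.16 to 11.07 in WT-TAF3 cells, around the differentiated values of 10.88, 10.69 and 10.95. The fibril-associated Col12a1, Col14a1 and Col16a1 and the short-chain Col8a1 passed in no genotype, with differences between -0.15 and 0.45. Without the third etoposide arrays Col12a1 and Col14a1 did pass in WT-TAF3 cells. Their rises were then 0.56 (adjusted p = 0.00899) and 0.49 (adjusted p = 0.000114).

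Among the basement membrane collagens only Col18a1, the source of the fragment endostatin, passed. Its arrays read 9.05, 8.94 and 9.0 in differentiated WT-TAF3 cells and 10.40, 10.41 and 10.13 after etoposide. They read 9.32, 9.29 and 9.22, then 10.57, 10.77 and 10.38 with depletion, and 9.67, 9.69 and 9.66, then 10.82, 10.73 and 10.32 with KK-TAF3. Col18a1 rose by 1.32, 1.30 and 0.95 (SE 0.11, largest adjusted p = 4.86e-06). Its start lies 440.5 kb from that of Col6a1, which fell. Col4a1 and Col4a2, whose annotated starts lie 21 bases apart on opposite strands of chromosome 8, differed by -0.19 and -0.22 in WT-TAF3 cells, -0.16 and -0.27 with depletion and -0.26 and -0.32 with KK-TAF3. Neither passed, nor did Col4a5 or Col15a1.

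**Figure D2:**
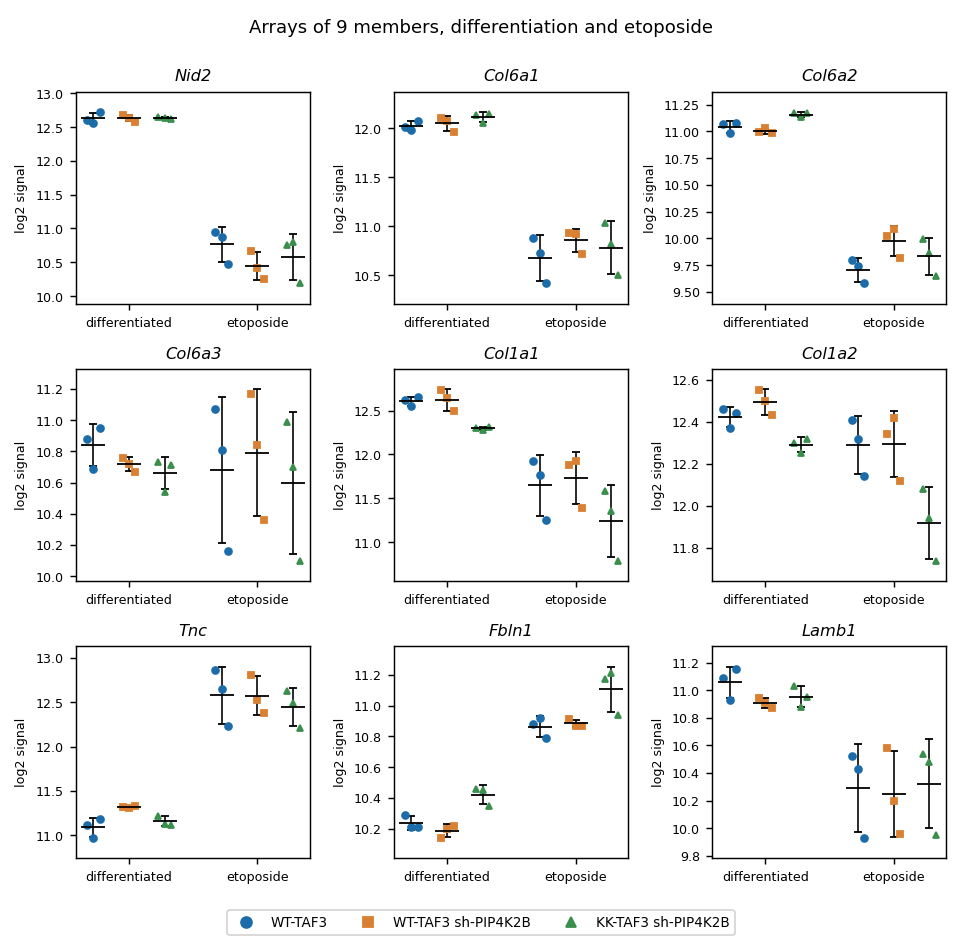
Log2 signal (y axis) of 9 members on each of the 18 arrays, by treatment (x axis) and genotype (colour and symbol), with the mean and SD of 3 arrays as black bars. Col6a1 and Col6a2 were lower after etoposide than in differentiated cells, while Col6a3 did not separate. The third etoposide array of each genotype, the right-hand point, is low for Col6a3, Col1a1 and Lamb1.

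The laminins and nidogens held the largest fall of the 47 members. Nid2, a nidogen that bridges laminin and collagen IV, read 12.61, 12.56 and 12.72 in differentiated WT-TAF3 cells and 10.95, 10.88 and 10.47 after etoposide. It read 12.68, 12.64 and 12.58, then 10.67, 10.41 and 10.25 with depletion, and 12.65, 12.63 and 12.62, then 10.76, 10.80 and 10.19 with KK-TAF3. The differentiated arrays of all genotypes lay between 12.56 and 12.72, and every etoposide array lay far below them. Nid2 fell, with differences of -1.86, -2.19 and -2.05 (SE 0.14, largest adjusted p = 1.42e-08), or 3.64-fold, 4.55-fold and 4.14-fold. Its paralog Nid1 differed by -0.60, -0.21 and -0.48 (SE 0.14) and passed in WT-TAF3 cells only, where the call was lost without the third etoposide arrays at a difference of -0.41. On the etoposide arrays Nid1 read 12.51, 12.43 and 11.91 in WT-TAF3 cells and 12.90, 12.86 and 12.54 with depletion, and its depletion effect differed between the treatments by 0.40 (SE 0.20, adjusted p = 0.177), which did not pass. Lamb1, the beta1 chain of many laminins, fell by 0.76, 0.66 and 0.63 (SE 0.16), and its value in KK-TAF3 cells was -0.45, under the fold limit, without the third etoposide arrays. With array medians as a covariate Lamb1 passed in WT-TAF3 cells only, at -0.31 with depletion (adjusted p = 0.264) and -0.43 with KK-TAF3 (adjusted p = 0.0469). Lamc1, the gamma1 chain that pairs with it, differed by -0.45, -0.51 and -0.44 (SE 0.19) and passed with depletion only, at an adjusted p of 0.0440 that 15 of 29 alternative settings did not keep, and at -0.33 without the third etoposide arrays. Lama2, the alpha chain of the muscle laminin, fell by 0.55 with depletion and 0.71 with KK-TAF3, and differed by -0.35 in WT-TAF3 cells. The call with depletion was lost with array medians as a covariate, at -0.42. Lama4 passed in none.

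Of the 9 elastic fibre and microfibril genes, 1 fell and 1 rose in every genotype. Efemp1, which codes for fibulin-3, read 9.40, 9.34 and 9.33 in differentiated WT-TAF3 cells and 8.25, 8.24 and 8.38 after etoposide. With depletion it read 9.05, 9.21 and 9.05, then 8.15, 7.79 and 7.86, and with KK-TAF3 9.61, 9.41 and 9.43, then 8.23, 8.55 and 8.74. It fell by 1.06, 1.17 and 0.97 (SE 0.11, largest adjusted p = 2.59e-06). Fbln1, the related fibulin-1, moved the other way, from 10.29, 10.21 and 10.21 to 10.88, 10.92 and 10.79 in WT-TAF3 cells. It went from 10.14, 10.20 and 10.22 to 10.91, 10.87 and 10.87 with depletion and from 10.46, 10.45 and 10.35 to 11.17, 11.21 and 10.94 with KK-TAF3. The rises of 0.62, 0.70 and 0.69 (SE 0.07, largest adjusted p = 2.65e-06) had groups that did not overlap in any genotype. Fbln5, Mfap4 and Mfap5 passed in WT-TAF3 cells alone, with falls of 0.97, 0.57 and 0.60. For Fbln5, fibulin-5, a protein that organises elastin, this dependence on genotype was itself tested and is taken up with the genotypes. Eln, Fbn2, Fbln2 and Mfap2 passed in no genotype.

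The matricellular genes diverged. Tnc, the adhesion-modulating tenascin-C, read 11.12, 10.97 and 11.18 in differentiated WT-TAF3 cells and 12.86, 12.65 and 12.23 after etoposide. It read 11.32, 11.31 and 11.33, then 12.81, 12.53 and 12.38 with depletion, and 11.22, 11.13 and 11.12, then 12.63, 12.49 and 12.21 with KK-TAF3. With rises of 1.49, 1.25 and 1.29 (SE 0.13, largest adjusted p = 1.04e-06), or 2.39-fold to 2.81-fold, Tnc had the largest mean increase of the members. Postn, periostin, fell with depletion by 0.81 and with KK-TAF3 by 1.12 (SE 0.08), and differed by -0.44 in WT-TAF3 cells. Dpt, dermatopontin, fell in WT-TAF3 cells by 0.56 and with KK-TAF3 by 0.52 (SE 0.10), the latter -0.45 and under the fold limit without the third etoposide arrays. Fn1, fibronectin, differed by -0.19, -0.16 and -0.27, and Sparc, a collagen-binding glycoprotein, by -0.12, -0.12 and -0.13.

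Among proteases and their inhibitors Mmp2, the gelatinase that cuts collagen IV and denatured collagen, fell by nearly the same amount in each genotype, 0.85, 0.83 and 0.84 (SE 0.09, largest adjusted p = 1.04e-06). Timp3, a matrix-bound inhibitor of metalloproteinases, rose in WT-TAF3 cells by 0.54 and with depletion by 0.58 (SE 0.08), and differed by 0.19 with KK-TAF3. Mmp14, Timp1 and Timp2 passed in no genotype. Of the cross-linking group only Loxl1, a lysyl oxidase, passed, with a fall of 0.64 (SE 0.07) in KK-TAF3 cells. It differed by -0.48 in WT-TAF3 cells, just under the fold limit, and by -0.29 with depletion. With array medians as a covariate Loxl1 passed in WT-TAF3 cells too, at -0.50 (adjusted p = 1.61e-05). Lox and the procollagen cleavage enhancer Pcolce stayed between -0.10 and 0.10 in all genotypes.

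The second comparison asked what PIP4K2B depletion did to the members in each treatment. In differentiated cells 3 of 47 fell, Fbln5, Dpt and Mmp2, and none rose, which is 6.38% against 1.06% of all genes. After etoposide 2 fell, Postn and Mmp2, and none rose, 4.26% against 0.868%. The member medians were -0.07 and 0.00, beside -0.02 and 0.02 over all genes. No fibrillar collagen, basement membrane collagen, laminin or nidogen passed in either treatment, although Nid1 after etoposide did with array medians as a covariate, at 0.58 (adjusted p = 0.0231).

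**Figure D3:**
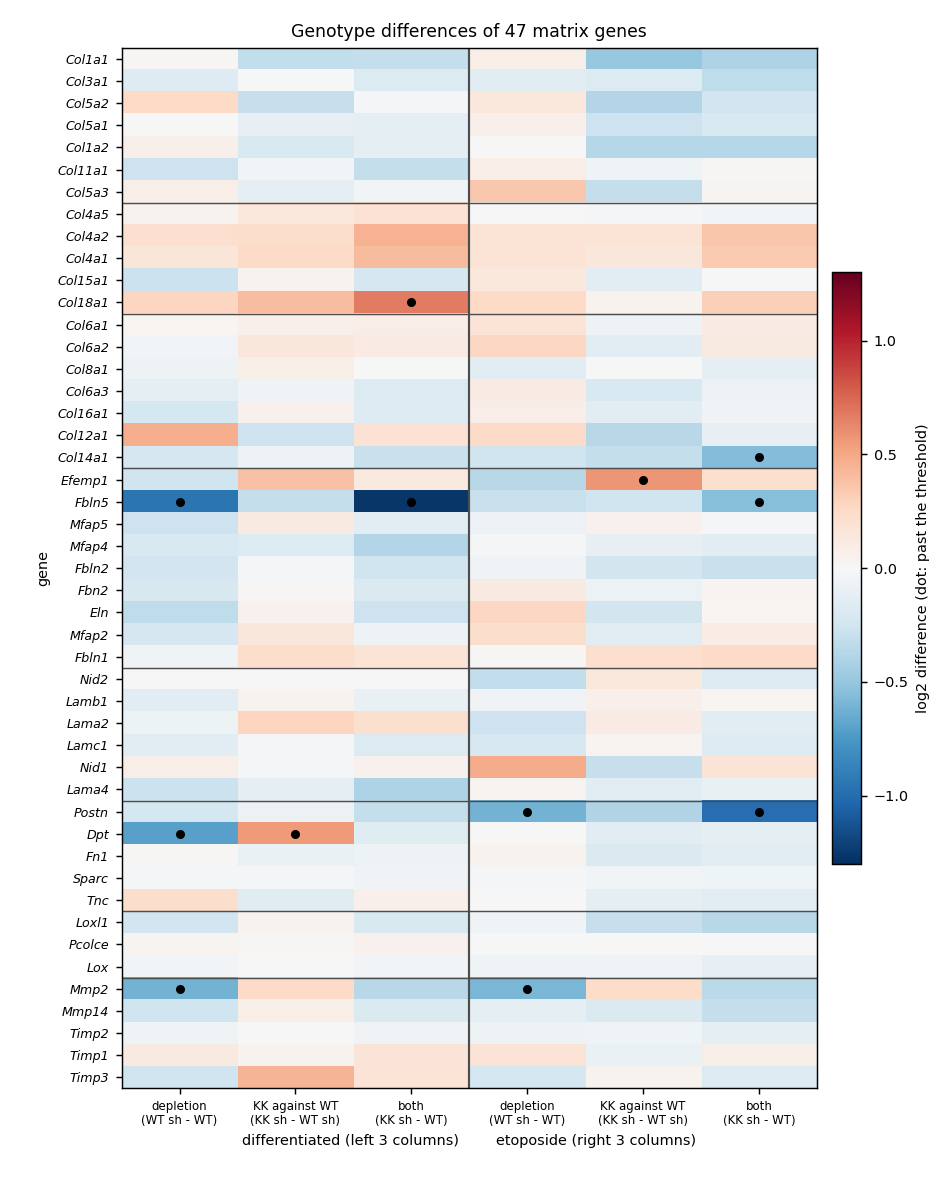
Log2 difference (colour) of the 47 matrix genes (rows) in the 6 genotype comparisons (columns, 3 per treatment), with a black dot where the gene passed the threshold. Most cells are pale, and the dots fall on Fbln5, Dpt, Mmp2, Postn, Efemp1, Col14a1 and Col18a1.

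Fbln5 had the largest genotype difference of the members. In differentiated cells it read 9.64, 9.57 and 9.57 in WT-TAF3, 8.66, 8.55 and 8.73 with PIP4K2B depletion and 8.35, 8.27 and 8.37 in KK-TAF3 sh-PIP4K2B cells. After etoposide it read 8.55, 8.64 and 8.69, then 8.29, 8.45 and 8.26, and 8.06, 8.12 and 8.05 in the same order. The 3 genotypes did not overlap in either treatment and kept one order. Depletion lowered Fbln5 by 0.95 in differentiated cells (SE 0.07, adjusted p = 1.86e-07), 1.93-fold, and the difference after etoposide was -0.29 (SE 0.07, adjusted p = 0.0230), under the fold limit. The depletion effect differed between the treatments by 0.65 (SE 0.10, adjusted p = 0.00130). Fbln5 is annotated on chromosome 12, from 101746565 to 101819119 (GRCm38.p6, minus strand).

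Mmp2 fell with depletion in both treatments. Its differentiated arrays read 12.88, 12.76 and 12.79 in WT-TAF3, 12.24, 12.20 and 12.15 with depletion and 12.45, 12.46 and 12.44 with KK-TAF3. After etoposide they read 12.01, 12.02 and 11.84, then 11.45, 11.39 and 11.27, and 11.80, 11.65 and 11.37. Depleted arrays lay below all WT-TAF3 arrays in each treatment, with falls of 0.61 (SE 0.09, adjusted p = 0.000506) and 0.59 (SE 0.09, adjusted p = 0.000698). Its values with KK-TAF3 lay between the other genotypes in differentiated cells.

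Dpt codes for a small protein that binds collagen fibrils, and it is among the dimmer genes of the array. It read 6.31, 5.92 and 5.91 in differentiated WT-TAF3 cells, 5.29, 5.26 and 5.44 with depletion and 5.75, 5.93 and 5.96 with KK-TAF3. After etoposide it read 5.40, 5.58 and 5.48, then 5.42, 5.54 and 5.54, and 5.53, 5.33 and 5.24, with all genotypes overlapping. Depletion lowered it by 0.71 in differentiated cells (SE 0.10, adjusted p = 0.000501), and the difference after etoposide was 0.01 (SE 0.10, adjusted p = 0.953). Dim genes as a whole moved too, with a median of -0.10 in the dimmest 6646 genes and 0.06 in the brightest 6646 under depletion in differentiated cells.

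Postn showed its depletion effect mainly after etoposide. In differentiated cells it read 12.04, 12.01 and 12.08 in WT-TAF3, 11.81, 11.85 and 11.80 with depletion and 11.76, 11.80 and 11.65 with KK-TAF3. After etoposide it read 11.74, 11.62 and 11.47, then 11.16, 10.96 and 10.90, and 10.58, 10.66 and 10.62. All 3 etoposide groups were apart from each other. The depletion difference was -0.23 in differentiated cells (SE 0.08, adjusted p = 0.0768) and a fall of 0.61 after etoposide (SE 0.08, adjusted p = 0.00012), and the difference between the treatments was -0.38 (SE 0.11, adjusted p = 0.0471), which is under the fold limit.

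Across members the depletion effect differed between the treatments for Fbln5, Eln and Dpt, 6.38% of 47 against 4.02% of all genes. In each the depletion difference, depleted minus WT-TAF3, was the higher one after etoposide. Eln, elastin, read 7.93, 8.04 and 7.82 in differentiated WT-TAF3 cells and 7.66, 7.53 and 7.61 with depletion, then 7.63, 7.82 and 7.68 and 7.72, 8.15 and 8.08 after etoposide. Its depletion difference was -0.33 in differentiated cells and 0.27 after etoposide, neither past the threshold, and the difference between them was 0.60 (SE 0.15, adjusted p = 0.0334). For Dpt it was 0.73 (SE 0.15, adjusted p = 0.0118). The dimmest 6646 genes, Dpt among them, had a median of 0.18 in this contrast. The middle 6646, which hold Fbln5 and Eln, had one of 0.09 and the brightest 6646 one of -0.11. The part of that shift in these results was not tested. Without the third etoposide arrays Eln and Dpt did not pass, at adjusted p of 0.100 and 0.0509. When array medians were entered as a covariate, Fbln5 alone passed.

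**Figure D4:**
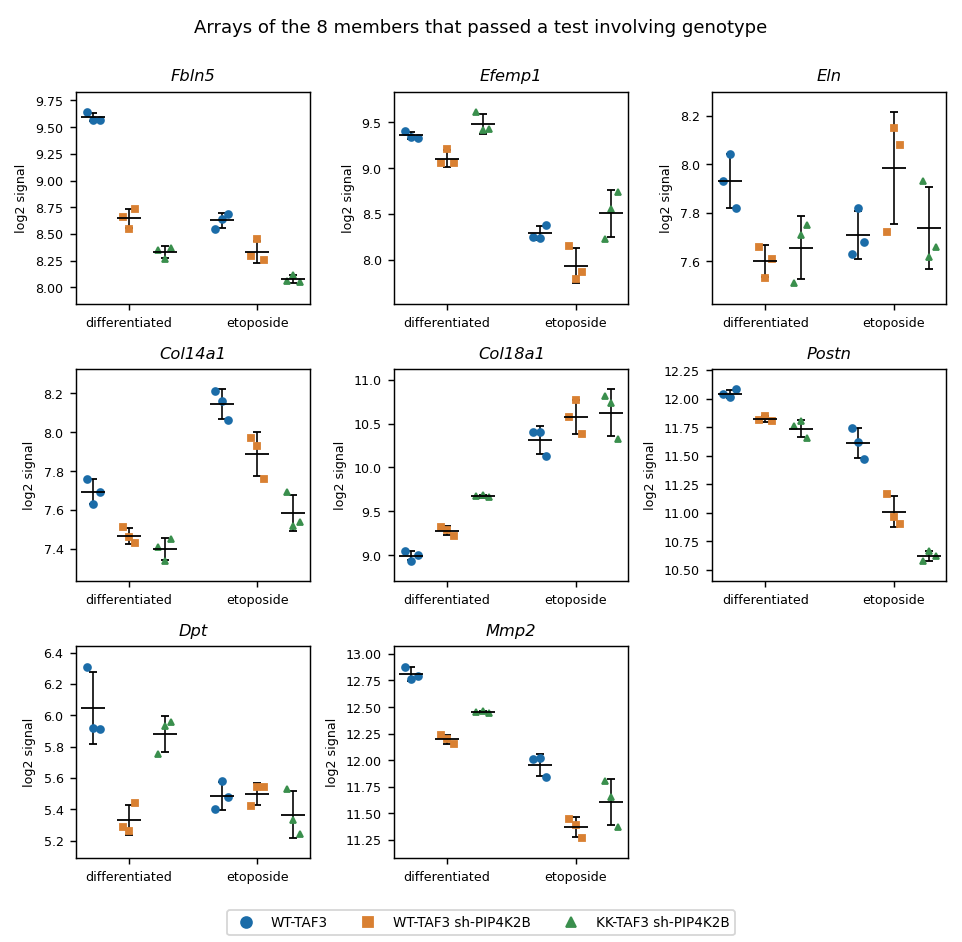
Log2 signal (y axis) on the 18 arrays of the 8 members that passed a test involving genotype, by treatment (x axis) and genotype (colour and symbol), with the mean and SD of 3 arrays as black bars. Fbln5 steps down across the genotypes in both treatments, Postn does so more steeply after etoposide, and the depleted Dpt arrays lie below the other genotypes in differentiated cells only.

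The third comparison asked how KK-TAF3 differed from WT-TAF3, both with PIP4K2B depleted. It uses the same 3 WT-TAF3 sh-PIP4K2B arrays per treatment as the depletion comparison, so the values are given side by side and no relation is drawn between them. In differentiated cells Dpt alone rose, 2.13% of 47 against 0.517% of all genes, by 0.55 (SE 0.10, adjusted p = 0.00825), after -0.71 for depletion. That call was lost on leaving out any of 4 single arrays of these groups, at adjusted p of 0.0504 to 0.0558. After etoposide Efemp1 alone rose, 2.13% against 0.406%, by 0.57 (SE 0.11, adjusted p = 0.0147), after -0.36 for depletion (adjusted p = 0.0984). Efemp1 did not pass without the third etoposide arrays, where the difference was 0.42 (adjusted p = 0.152). Its call was also lost on leaving out any of 4 single arrays of the etoposide groups compared, at adjusted p of 0.0649 to 0.113. The KK difference itself changed between the treatments for 0 of 47 members by limma, against 0.150% of all genes, and for 1 at an unadjusted p under 0.05 with the fold limit, Dpt, at -0.68 (SE 0.15, adjusted p = 0.0871).

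In the KK comparison 4 members met the limit on p but not that on fold, a count given without its share of all genes. In differentiated cells these were Fbln5, at -0.31 (SE 0.07, adjusted p = 0.0300), and Timp3, at 0.44 (SE 0.08, adjusted p = 0.00359), with 12.19, 12.21 and 12.11 against 11.67, 11.71 and 11.81. After etoposide they were Postn, at -0.39 (SE 0.08, adjusted p = 0.0182), and Loxl1, at -0.30 (SE 0.07, adjusted p = 0.0498). Col18a1 differed by 0.40 in differentiated cells (SE 0.11, adjusted p = 0.148), which met neither limit. The differences of the 7 fibrillar collagens ranged from -0.32 to -0.01 in differentiated cells and from -0.49 to -0.06 after etoposide, with none past the threshold. Of these Col1a1 was -0.32 and -0.49 (SE 0.18), Col1a2 -0.20 and -0.37 (SE 0.09) and Col5a2 -0.30 and -0.38 (SE 0.11). With the replicate number as a block within the etoposide arrays, Col1a1 passed at -0.49 (adjusted p = 0.0443) and Efemp1 did not (adjusted p = 0.146). All 47 members had medians of 0.02 and -0.13, beside 0.02 and -0.01 over all genes.

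Cells with both changes, KK-TAF3 sh-PIP4K2B, were last compared with WT-TAF3 cells. In differentiated cells Col18a1 rose and Fbln5 fell, 4.26% against 1.26% of all genes. Fbln5 fell by 1.26 (SE 0.07, adjusted p = 2.94e-09), 2.40-fold, and Col18a1 rose by 0.68 (SE 0.11, adjusted p = 0.00164), with the 9.67, 9.69 and 9.66 given above against 9.05, 8.94 and 9.0. Col4a2 differed by 0.45 (SE 0.15, adjusted p = 0.0708), with 10.08, 10.03 and 10.08 against 9.59, 9.55 and 9.69. Its partner Col4a1 differed by 0.41 (SE 0.13, adjusted p = 0.0524), with 9.85, 9.81 and 9.76 against 9.37, 9.39 and 9.45. With arrays centred on their medians both passed, Col4a1 at 0.50 (adjusted p = 0.0277) and Col4a2 at 0.54 (adjusted p = 0.0364). After etoposide Postn, Col14a1 and Fbln5 fell, 6.38% against 1.15%. Postn fell by 0.99 (SE 0.08, adjusted p = 1.52e-06), 1.99-fold, and Fbln5 by 0.55 (SE 0.07, adjusted p = 9.35e-05). Col14a1, a collagen on the surface of fibrils, read 8.21, 8.16 and 8.06 in WT-TAF3, 7.97, 7.93 and 7.76 with depletion and 7.69, 7.52 and 7.54 with KK-TAF3 after etoposide, and 7.76, 7.63 and 7.69, then 7.51, 7.46 and 7.43, and 7.41, 7.34 and 7.45 in differentiated cells. It fell by 0.56 after etoposide (SE 0.07, adjusted p = 0.000115) and differed by -0.29 in differentiated cells (SE 0.07, adjusted p = 0.0216).

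Genes that act on the members were read from separate lists, and their counts are read against the same share of all genes as those of the members. Of 17 TGF-beta ligands, latent binding proteins, receptors and targets, 2 fell with depletion in differentiated cells, 11.8% against 1.06% of all genes. These were the target Ccn2, by 0.67, and the co-receptor Tgfbr3, by 0.72. After etoposide 1 fell, the ligand Tgfb2, by 0.55, 5.88% against 0.868%. Of 26 collagen synthesis and processing enzymes, P3h2, a prolyl 3-hydroxylase, fell by 0.89 with depletion after etoposide, 3.85% against 0.868%. Pcolce2, a relative of Pcolce, rose by 0.53 and 0.58 in the KK comparison in the 2 treatments, 3.85% in each against 0.517 and 0.406%. Of 22 other metalloproteinases and ADAMTS proteases 1 rose in the KK comparison in differentiated cells, Mmp19, by 0.50, and 1 fell after etoposide, Adamts1, by 0.61 (4.55% each). With both changes Ccn2 fell by 1.05 (5.88%) and Adamts12 by 0.58 (4.55%) in differentiated cells, against 1.26% of all genes. After etoposide Ccn2 fell by 0.67 (5.88%), Adamts5 by 0.66 and Adamts1 by 0.56 (9.09%), against 1.15%. In the enzyme list P3h2 then fell by 0.67 and Pcolce2 rose by 0.73 (7.69%). Between etoposide and differentiation in WT-TAF3 cells, where 7.63% of all genes passed, 3 of the 17 TGF-beta genes rose and 6 fell (52.9%), 1 of the 26 enzymes rose and 5 fell (23.1%), and 1 of the 22 proteases rose and 8 fell (40.9%). With depletion the TGF-beta, enzyme and protease lists had 52.9, 19.2 and 36.4% called against 9.95%, and with KK-TAF3 64.7, 23.1 and 36.4% against 8.33%. Adamts1, a protease of this list chosen here after its values were seen, fell in each genotype, with differences of -2.35, -2.18 and -2.86 in the same order. Among 25 collagen chains outside the list none passed in a genotype comparison within a treatment or between treatments in one genotype. For 7 of them (28.0%, against 4.02% of all genes) the depletion effect was higher after etoposide, by 0.51 for Col13a1 to 0.64 for Col27a1, beside the shift of dim genes given above. In the same contrast Tgfb2, Adamts4 and Plod2 passed with differences of -0.72, -0.64 and -0.49. These were 5.88, 4.55 and 3.85% of the TGF-beta, protease and enzyme lists. None of 6 other laminin chains passed in any comparison.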

How the data were processed

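The authors measured total RNA of 18 C2C12 samples on Affymetrix whole-transcript mouse arrays and deposited log2 signals made with RMA in Expression Console, whose version is not given in the sources used here. RMA subtracts background, forces every array to one distribution and pools probes into transcript clusters, so a change shared by all genes cannot be seen. The methods name a later chip generation than the platform whose annotation lists these rows. Of 35556 rows, 21789 have 1 symbol, 1621 several and 12146 are not listed; for each symbol the row of highest mean was kept, which gave 19938 genes. Array medians ran from 7.25 to 7.462, within-group correlations from 0.9904 to 0.9967. The number of arrays limits the precision.

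Groups came from the sample labels. All tests used limma 3.58.1 (R 4.3.3) and 1 model of 6 group means (12 residual and 6.05 prior degrees of freedom), with Benjamini-Hochberg adjustment over 19938 genes. SE is the moderated standard error. Figures were drawn with Python 3.11.15, pandas 2.3.3 and matplotlib 3.10.9. The test was checked on simulated data. The members and lists were chosen with earlier results of these data known. Every array is given for members past the threshold or among the 3 largest in a genotype comparison, and, between treatments, for the 6 largest changes each way among members that passed in all 3 genotypes. Chain partners are set beside them. Alternatives changed the threshold, the arrays in the fit, the prior, the gene filter, the row choice, the scaling and the block; 2 were added after seeing the data. The labels give 2 days of differentiation, the series design a different time.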

Additional observations from a re-analysis of the deposited data

Results flagged for a closer look

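The effect of PIP4K2B depletion differed between etoposide and differentiation for 3 of 47 members by limma's test of that difference. That is 6.38%, against 4.02% of all genes. The difference was 0.65 for Fbln5, 0.60 for Eln and 0.73 for Dpt on the log2 scale. In each the depletion difference, depleted minus WT-TAF3, was the higher one after etoposide. The dimmest 6646 genes, Dpt among them, had a median of 0.18 in this contrast, and the middle 6646, which hold Fbln5 and Eln, one of 0.09. The Fbln5 difference passed under each of 29 alternative settings. The Eln difference passed under 16 of 28 and that of Dpt under 26 of 28. These tallies include the settings with an unadjusted p and with no fold limit, which only loosen the threshold and cannot lose a call. They also include fits without an array outside this contrast, which act only through the shared spread. What underlies these differences was not tested.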

How the results depend on the processing

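No difference of a called member changed sign under any setting run, and the genotype calls of Fbln5, Mmp2, Postn, Col14a1 and Col18a1 passed in every one. The settings with an unadjusted p and with no fold limit could not lose a call, because they only loosen the threshold. With no fold limit, members past the adjusted p numbered 7 for depletion, 3 for KK-TAF3 and 8 for both changes in differentiated cells, 3 for KK-TAF3 and 8 for both changes after etoposide, 28, 26 and 27 for etoposide against differentiation in the order of genotypes above, and 5 for the difference of the depletion effect. The shares of all genes without the fold limit are not given here, so these counts are not read as results about the members. With an unadjusted p the KK-TAF3 counts were 2 after etoposide and 1 for the difference between treatments. Among genes above the median signal they were 0 for KK-TAF3 in differentiated cells and 1 for the difference of the depletion effect. That filter removes Dpt and Eln before testing, so these lower counts follow from the filter and say nothing about those members. In fits on the arrays of one treatment or of the groups compared, KK-TAF3 after etoposide gave 0. Arrays centred on their medians gave 4 for both changes in differentiated cells, and the array median as a covariate gave 1 for the difference of the depletion effect. Without single arrays the counts ran from 0 to 1 for KK-TAF3 in differentiated cells, 0 to 1 for KK-TAF3 after etoposide, 3 to 5 for both changes after etoposide, 2 to 5 for the difference of the depletion effect and 0 to 1 for that of KK-TAF3. The highest counts came without replicate 3 of KK-TAF3 sh-PIP4K2B after etoposide for both changes, without replicate 1 of WT-TAF3 sh-PIP4K2B after etoposide for the depletion effect, and without replicate 1 of differentiated WT-TAF3 or of KK-TAF3 sh-PIP4K2B after etoposide for that of KK-TAF3. The counts of 0 came without replicate 1 or 2 of WT-TAF3 sh-PIP4K2B or 2 or 3 of KK-TAF3 sh-PIP4K2B in differentiated cells, and without replicate 2 of WT-TAF3 sh-PIP4K2B or 2 or 3 of KK-TAF3 sh-PIP4K2B after etoposide. Leaving out replicate 3 of WT-TAF3 sh-PIP4K2B after etoposide lost Efemp1 for KK-TAF3 and called Col5a2 instead, at -0.49 (adjusted p = 0.0419). Without the etoposide arrays of replicate number 3, added after seeing the data, KK-TAF3 after etoposide gave 0 and the difference of the depletion effect 1. Deviations of same-numbered arrays correlated from -0.418 to 0.593 over all groups (median 0.03), so the numbers were not taken to pair the samples. Within etoposide the median was 0.332 for arrays of one number, with a lowest value of -0.291, against -0.265 for other numbers, so the number marks a difference shared by many of those arrays. The replicate block over all arrays gave the counts of the fit without it, 3 for depletion in differentiated cells among them; a block within the etoposide arrays, also added after seeing the data, left Efemp1 at an adjusted p of 0.146 and called Col1a1, at -0.49 with an adjusted p of 0.0443. Dpt and Lama4 are the dimmest members.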
